A study of Mus musculus with 3 samples.

Results

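The lipid and cholesterol synthesis genes are 33 genes picked by symbol from the 32285 gene rows of the deposited single-cell count matrices. By role they comprise 10 genes of fatty acid synthesis, 11 of sterol synthesis, 3 of triglyceride storage, 4 regulators, 2 of cholesterol efflux and 3 of fatty acid activation and oxidation. The choice was by symbol, but it was made with earlier results of these data known. The cells were CD4+ T cells of lupus-prone MRL/lpr mice, sorted from the kidney or the spleen and given an antibody tag for each mouse and organ before pooling, and transcripts were counted from their 5′ ends. Floxed mice (Ezh2fl/fl, called WT in the tag key) were compared with littermates that also carried CD4-Cre/ERT2, a Cre that tamoxifen activates under a Cd4 promoter (called KO). Ezh2 encodes the histone methyltransferase of Polycomb repressive complex 2. All mice carried the floxed allele and the MRL/lpr background, and the labels give 6 generations of backcrossing. Both genotypes were gavaged with tamoxifen at 300 mg/kg in corn oil up to 24 weeks of age. Gavage began at week 10 (preventative) or week 14 (therapeutic). Which mouse had which start, and which exons are floxed, is not given in the sources used here. The Cre acts in every cell that uses the Cd4 promoter, not only in T cells that reach the kidney.

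The labels count 10 floxed and 9 Cre-carrying mice sorted, and the tag key names 4 KO and 5 WT mice. Of these, 2 KO mice (KO1, KO2) and 3 WT mice (WT1, WT2, WT3), each with kidney and spleen, could be told apart by barcode block, a run of barcodes sharing a suffix. Each of these 10 blocks of the first day belonged to 1 mouse and 1 organ, and no barcode stood in more than 1 of them. The 8 blocks of the second day repeated 2399 barcodes over 17523 entries and were not used. The unit compared is the block, 1 organ of 1 mouse: UMIs (unique molecular identifiers, which count captured transcripts) were summed over all its cells. Between genotypes within an organ, each block is a different mouse. The main organ fit and the block counts in cell classes take both organs of a mouse without pairing them. The independent animals are still only 2 KO and 3 WT mice.

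Cells make fatty acids from citrate, which ATP citrate lyase (Acly) splits into acetyl-CoA. Acetyl-CoA carboxylase (Acaca) and fatty acid synthase (Fasn) then build the chain, and desaturases and elongases finish it. The same acetyl-CoA enters the mevalonate pathway, which leads through squalene and lanosterol to cholesterol. When sterol in the endoplasmic reticulum runs low, SREBP-2 (Srebf2) is released from its anchor Insig1, moves to the nucleus and switches on the sterol genes, Insig1 among them. SREBP-1 (Srebf1) acts more on fatty acid genes, and liver X receptors (Nr1h2) answer oxysterols by switching on the efflux pumps Abca1 and Abcg1. T cells that divide need both branches for new membrane.

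For 24 of the 33 members the set of RefSeq promoter windows used here held a window. It ran from 250 bases before to 50 after the gene's start (GRCm38.p6). Fads1, Dgat2, Fdft1, Sqle, Fdps, Abcg1, Scd1, Scd2 and Dgat1 were not in that set. The 250 bases before the start are shown for 3 sterol members and Insig1, all higher in kidney than in spleen below. Cyp51 lies at chr5:4104698-4104947 on the minus strand, Idi1 at chr13:8885356-8885605 on the plus strand, Hmgcs1 at chr13:119690101-119690350 on the plus strand and Insig1 at chr5:28071162-28071411 on the plus strand. Capitals mark CCAAT, read on either strand (ATTGG is its reverse complement), and TCACNCCAC, a form of the sterol regulatory element.
Cyp51: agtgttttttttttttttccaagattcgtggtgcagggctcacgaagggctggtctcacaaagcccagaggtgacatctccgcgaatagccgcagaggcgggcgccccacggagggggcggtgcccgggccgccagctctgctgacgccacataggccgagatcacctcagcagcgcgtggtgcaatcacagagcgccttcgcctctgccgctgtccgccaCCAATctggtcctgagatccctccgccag
Idi1: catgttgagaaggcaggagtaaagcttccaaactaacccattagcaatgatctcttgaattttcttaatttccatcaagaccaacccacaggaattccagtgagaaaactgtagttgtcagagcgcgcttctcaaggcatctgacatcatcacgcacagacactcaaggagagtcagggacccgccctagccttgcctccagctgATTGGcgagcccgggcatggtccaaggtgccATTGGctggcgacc
Hmgcs1: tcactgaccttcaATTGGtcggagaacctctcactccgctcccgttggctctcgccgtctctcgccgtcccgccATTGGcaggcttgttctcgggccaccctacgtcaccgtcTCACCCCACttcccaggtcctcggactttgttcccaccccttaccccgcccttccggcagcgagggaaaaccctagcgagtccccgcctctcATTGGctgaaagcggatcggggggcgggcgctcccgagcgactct
Insig1: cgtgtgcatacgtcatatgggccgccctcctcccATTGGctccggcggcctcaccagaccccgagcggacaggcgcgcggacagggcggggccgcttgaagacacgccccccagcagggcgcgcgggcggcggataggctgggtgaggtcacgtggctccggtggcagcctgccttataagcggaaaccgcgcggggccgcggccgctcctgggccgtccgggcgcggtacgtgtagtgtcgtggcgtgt
Of the 8 sterol members with a window, 8 held CCAAT on either strand, against 37.4% of all 32851 windows of this length. Dhcr7 held it in only 1 of its windows. For each motif here a member counts if any of its windows matched. The share over all windows counts single windows, so these measures are not alike. Among fatty acid members it stood in 4 of 7 (Acly, Elovl1, Elovl5 and Fasn), and in 18 of all 24. Hmgcs1 alone held TCACNCCAC, on either strand, against 1.24% of all windows, and the match overlapped no CCAAT. The E-box CACGTG, which SREBPs can also bind, stood in 6 of the 24 against 7.15%, Insig1 and Sc5d among them. Such matches describe the letters in these windows, and no binding was measured.

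After a filter of at least 200 genes and under 10% mitochondrial UMIs, 13337 cells were kept. Blocks held 219 (KO2) to 1629 (WT1) kidney cells and 922 to 2386 spleen cells. Total UMIs ran from 900068 in kidney KO2 to 6829477 in kidney WT1, and from 4105534 (WT2) to 10102765 (WT1) in spleen. Ezh2 itself (chr6:47530274-47595270) stood at 75.6 and 59.7 CPM in kidney of KO1 and KO2 and at 89.8, 159 and 138 CPM in WT1, WT2 and WT3. In spleen it stood at 51.3 and 53.4 CPM in the KO mice and at 69.5, 172 and 152 CPM in the WT mice. KO mice lay below WT mice in both organs, but edgeR's adjusted p was 0.467 in kidney and 0.192 in spleen. The 6 CD4 T cell markers summed to 3086 to 4042 CPM in kidney and 3393 to 4494 CPM in spleen. Levels are TMM-scaled CPM, UMI counts put on 1 library scale over the 10 blocks. They are used to compare blocks for 1 gene, never to rank genes. With summed blocks, a change in the share of a cell type and a change in RNA per cell cannot be told apart.

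Kidney CD4+ T cells held more transcript of much of the sterol pathway than spleen cells of the same mice, and far more of the diacylglycerol acyltransferase genes. Of the 31 members that passed edgeR's filter on low counts, 12 passed the test (adjusted p under 0.05): 11 were higher in kidney and 1, Dhcr7, was lower. Over all 11628 genes tested 22.9% passed, 12.7% higher and 10.2% lower. The median log2 fold change (kidney over spleen) was 0.31 for the members and -0.04 for all genes. Scd1, with 15 UMIs in all, and Fads2, with 62, were too low to be tested. The sterol members had 6 of 11 higher and 1 lower, with a median log2 fold change of 0.65. The fatty acid members had 0 of 8 called by edgeR, 2 of them at an unadjusted p under 0.05, and a median of 0.11.

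In the sterol branch the difference spanned early and late steps. Hmgcs1 (chr13:119690351-119708260), the synthase that commits acetyl-CoA to the mevalonate pathway, stood at 25.5, 36.3, 51.3, 52.0 and 44.2 CPM in kidney of KO1, KO2, WT1, WT2 and WT3. Its spleen levels were 28.0, 25.5, 27.7, 27.3 and 22.9 CPM in the same order. KO1 alone was lower in kidney than in spleen, and the fitted difference was 0.65 ± 0.16 log2 (SE, edgeR adjusted p = 0.0168). This call was lost without KO2, without WT2 and without WT3, with adjusted p up to 0.0734. Mvk (mevalonate kinase, chr5:114444264-114460591) stood at 17.3, 18.7, 23.6, 20.7 and 14.6 CPM in kidney against 11.9, 9.10, 11.0, 9.34 and 7.07 CPM in spleen. Every kidney sum lay above every spleen sum, by 0.99 ± 0.18 log2 (edgeR adjusted p = 0.00402).

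Idi1, the isomerase that makes dimethylallyl pyrophosphate (chr13:8885606-8892396), stood at 30.3, 35.1, 55.6, 49.3 and 35.1 CPM in kidney. In spleen it stood at 26.0, 23.1, 26.0, 28.3 and 21.2 CPM. The organs did not overlap, though KO1 in kidney came close to WT2 in spleen, and kidney was 1.65-fold higher (log2 0.72 ± 0.16, edgeR adjusted p = 0.00984). Sqle, squalene epoxidase (chr15:59315092-59331193), stood at 15.9, 29.2, 31.4, 30.9 and 26.3 CPM in kidney and at 13.2, 15.0, 15.9, 15.9 and 13.7 CPM in spleen. KO1 in kidney overlapped the spleen range, the other kidney sums lay well above it, and the fitted difference was 0.83 ± 0.16 log2 (edgeR adjusted p = 0.00474).

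Cyp51, the demethylase that acts on lanosterol (chr5:4080674-4104697), showed the largest difference among the sterol members. It stood at 74.2, 50.3, 107, 111 and 74.9 CPM in kidney and at 37.9, 28.4, 37.8, 32.7 and 29.7 CPM in spleen. The lowest kidney sum, that of KO2, was above the highest spleen sum, and kidney was 2.50-fold higher (log2 1.32 ± 0.18, edgeR adjusted p = 0.000715). Sc5d, the desaturase near the end of the pathway (chr9:42251592-42264300), stood at 30.3, 35.1, 35.2, 45.2 and 38.6 CPM in kidney and at 19.5, 18.2, 23.2, 22.0 and 21.9 CPM in spleen. Again the organs did not overlap, with a difference of 0.81 ± 0.10 log2 (edgeR adjusted p = 0.000374).

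Dhcr7, the reductase that turns 7-dehydrocholesterol into cholesterol (chr7:143823167-143848410), went the other way. It stood at 10.3, 9.36, 16.0, 16.1 and 15.5 CPM in kidney and at 16.9, 17.4, 21.4, 23.8 and 21.7 CPM in spleen. Kidney was lower in each of the 5 mice and no sums overlapped, by -0.58 ± 0.10 log2 (edgeR adjusted p = 0.003). The remaining sterol members, Mvd, Fdps, Fdft1 and Lss, did not pass, with log2 fold changes between -0.25 (Mvd, adjusted p = 0.521) and -0.01 (Fdps, adjusted p = 0.993). Lss, lanosterol synthase, gave the least precise value among them, -0.02 ± 0.38 log2.

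No fatty acid member passed the test between the organs over all 5 mice. Fasn had the smallest p among them, at 25.1, 31.6, 37.7, 30.4 and 21.4 CPM in kidney and 21.0, 23.5, 24.3, 21.3 and 19.8 CPM in spleen. It was higher in kidney in each mouse (log2 0.41 ± 0.15, edgeR adjusted p = 0.0803) and passed with the mouse as a block and without cells marked as other types. Acly stood at 75.2 ± 7.87 CPM in kidney and 64.9 ± 8.73 CPM in spleen (SD, n = 5 each). Acaca stood at 15.7 ± 4.20 and 15.3 ± 2.67 CPM, and Elovl5, an elongase of polyunsaturated chains, at 99.0 ± 15.2 and 105 ± 4.81 CPM. Elovl1, Elovl6 and Fads1 gave log2 fold changes of 0.11, 0.59 and 0.11, none called. For Scd2 the mice went in opposite directions. On the log2(CPM + 1) scale its kidney level was below its spleen level by -0.71, -0.91 and -1.07 in WT1, WT2 and WT3 and by -0.20 in KO2, and above it by 1.00 in KO1. Over all 5 mice it was not called (log2 -0.36 ± 0.31, edgeR adjusted p = 0.439), and without KO1 it was called lower in kidney (-0.83 ± 0.14, adjusted p = 0.0105).

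The summed sterol members and the summed fatty acid members show the same contrast within a mouse. The 11 sterol members summed to 254, 306, 411, 408 and 310 CPM in kidney of KO1, KO2, WT1, WT2 and WT3 and to 243, 216, 252, 236 and 206 CPM in spleen. The 10 fatty acid members summed to 314, 291, 319, 292 and 267 CPM in kidney and to 264, 252, 292, 314 and 289 CPM in spleen. The ratio of the sterol to the fatty acid sum was 0.810, 1.05, 1.29, 1.40 and 1.16 in kidney and 0.919, 0.857, 0.862, 0.751 and 0.710 in spleen. It was higher in kidney in 4 of 5 mice, and lower in KO1. These sums weight each gene by its abundance, and Cyp51 is a large part of the sterol sum.

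**Figure D1:**
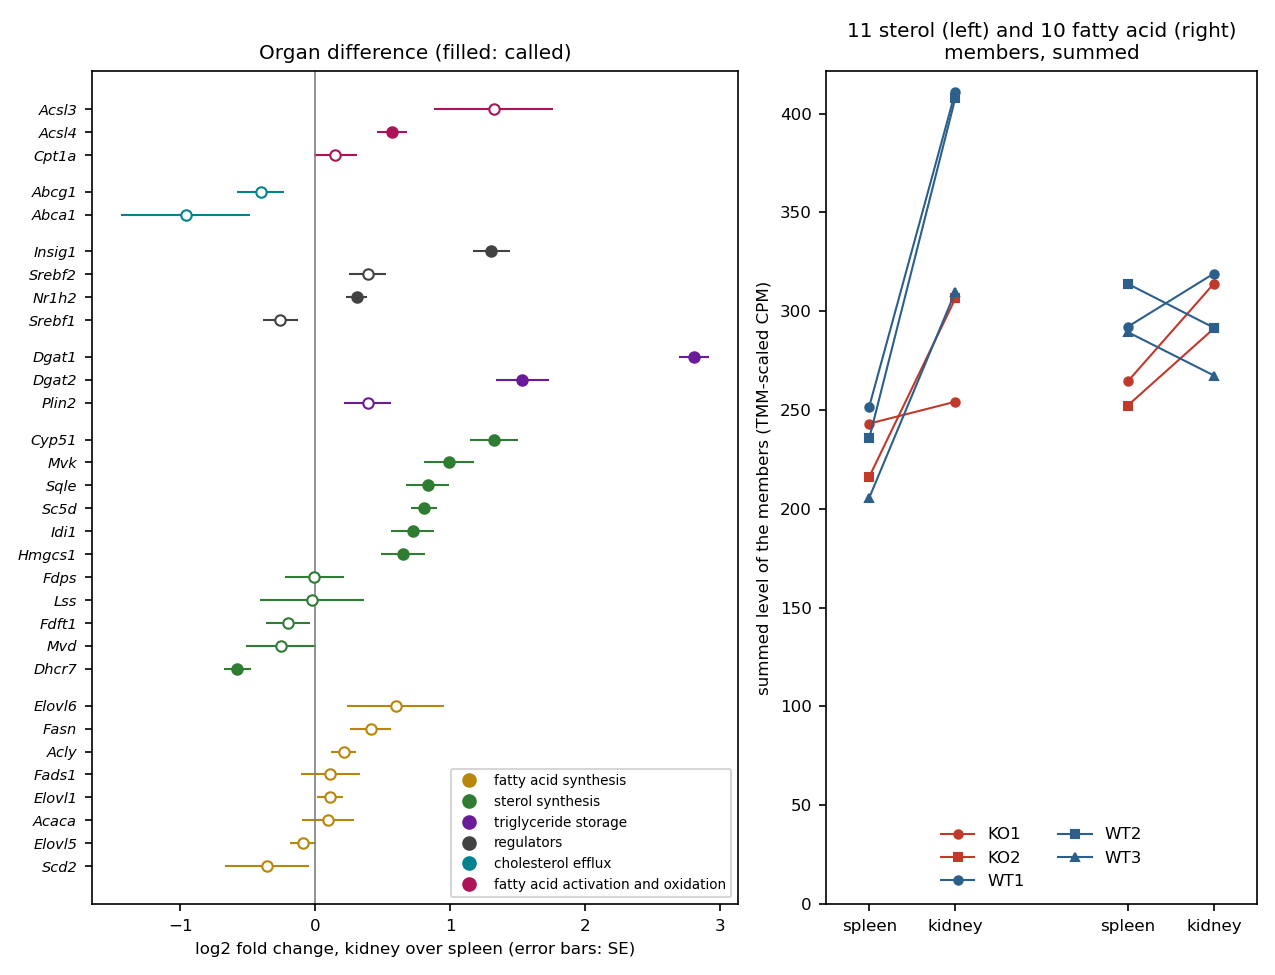
Left: fitted log2 fold change of kidney over spleen for each of the 31 tested members, grouped and coloured by role, with SE as error bars and filled points for members that passed the test. Right: summed levels (TMM-scaled CPM) of the sterol and the fatty acid members in spleen and kidney, a line per mouse. The sterol sums of KO2, WT1, WT2 and WT3 are at 306 to 411 CPM in kidney and 206 to 252 CPM in spleen, that of KO1 goes from 243 to 254 CPM, while the fatty acid sums span 267 to 319 CPM in kidney and 252 to 314 CPM in spleen.

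The largest organ difference of any member was that of Dgat1 (chr15:76502012-76512021), which encodes an enzyme of the last step of triglyceride synthesis. It stood at 99.6, 105, 98.4, 107 and 89.0 CPM in kidney and at 18.0, 15.2, 12.7, 14.9 and 11.6 CPM in spleen. Kidney was 6.98-fold higher (log2 2.80 ± 0.11, edgeR adjusted p = 1.01e-06), and the genotypes did not separate within kidney. Dgat2 (chr7:99153663-99182713), which encodes an unrelated enzyme for the same step, stood at 15.1, 15.2, 12.4, 15.5 and 19.0 CPM in kidney and at 4.46, 4.10, 7.68, 4.67 and 5.24 CPM in spleen. Here too no sums overlapped, and kidney was 2.89-fold higher (log2 1.53 ± 0.20, edgeR adjusted p = 0.000551). Plin2, a lipid droplet coat protein, stood at 21.0, 22.2, 14.4, 15.1 and 15.2 CPM in kidney and at 12.6, 12.6, 17.3, 11.9 and 10.2 CPM in spleen. It was higher in kidney in 4 of 5 mice and did not pass (log2 0.39 ± 0.17, edgeR adjusted p = 0.135).

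Among the regulators, Insig1 (chr5:28071412-28078662) stood at 94.8, 108, 122, 112 and 86.9 CPM in kidney and at 50.3, 40.2, 47.0, 41.8 and 33.2 CPM in spleen. All 5 kidney sums lay above all 5 spleen sums, and kidney was 2.47-fold higher (log2 1.30 ± 0.14, edgeR adjusted p = 0.000159). Nr1h2, which encodes liver X receptor beta (chr7:44549616-44553968), stood at 85.2, 83.0, 89.5, 108 and 90.1 CPM in kidney and at 65.2, 67.2, 72.9, 83.4 and 81.1 CPM in spleen. Each mouse was higher in kidney, the ranges overlapped slightly, and the difference was small (log2 0.31 ± 0.08, edgeR adjusted p = 0.0184). That call was lost without KO1, without KO2 and without the filter on low counts, with adjusted p up to 0.0975. Srebf2 stood at 88.8 ± 11.4 CPM in kidney and 68.6 ± 14.6 CPM in spleen (SD, n = 5), higher in kidney in each mouse but not called (log2 0.39 ± 0.14, adjusted p = 0.0674). Srebf1 stood at 26.8 ± 5.71 and 32.7 ± 2.11 CPM and was not called (log2 -0.26 ± 0.13, adjusted p = 0.183).

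The efflux pumps had lower mean levels in kidney without passing the test. Abca1 stood at 9.22, 7.02, 3.96, 1.19 and 2.34 CPM in kidney and at 7.06, 8.80, 13.2, 3.50 and 6.10 CPM in spleen (log2 -0.96 ± 0.48, edgeR adjusted p = 0.174). Abcg1 stood at 65.3, 46.8, 49.1, 30.7 and 37.7 CPM in kidney and at 56.8, 58.2, 54.0, 61.7 and 69.5 CPM in spleen (log2 -0.40 ± 0.17, adjusted p = 0.114). For both, KO1 was the only mouse higher in kidney. Of the acyl-CoA synthetases, Acsl4, which favours arachidonate (chrX:142317993-142390802), stood at 57.2, 60.8, 55.3, 40.9 and 45.9 CPM in kidney and at 36.0, 33.7, 35.5, 36.4 and 31.9 CPM in spleen. The organs did not overlap (log2 0.57 ± 0.11, edgeR adjusted p = 0.00485). Acsl3, which sits on lipid droplets, varied widely between mice, at 30.6, 32.8, 21.1, 9.51 and 16.7 CPM in kidney and 18.0, 14.9, 10.7, 1.40 and 2.44 CPM in spleen. It was higher in kidney in each mouse (log2 1.32 ± 0.44) and missed the threshold (edgeR adjusted p = 0.0533). Cpt1a, which carries fatty acids into oxidation, was not called (log2 0.15 ± 0.16, adjusted p = 0.537).

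**Figure D2:**
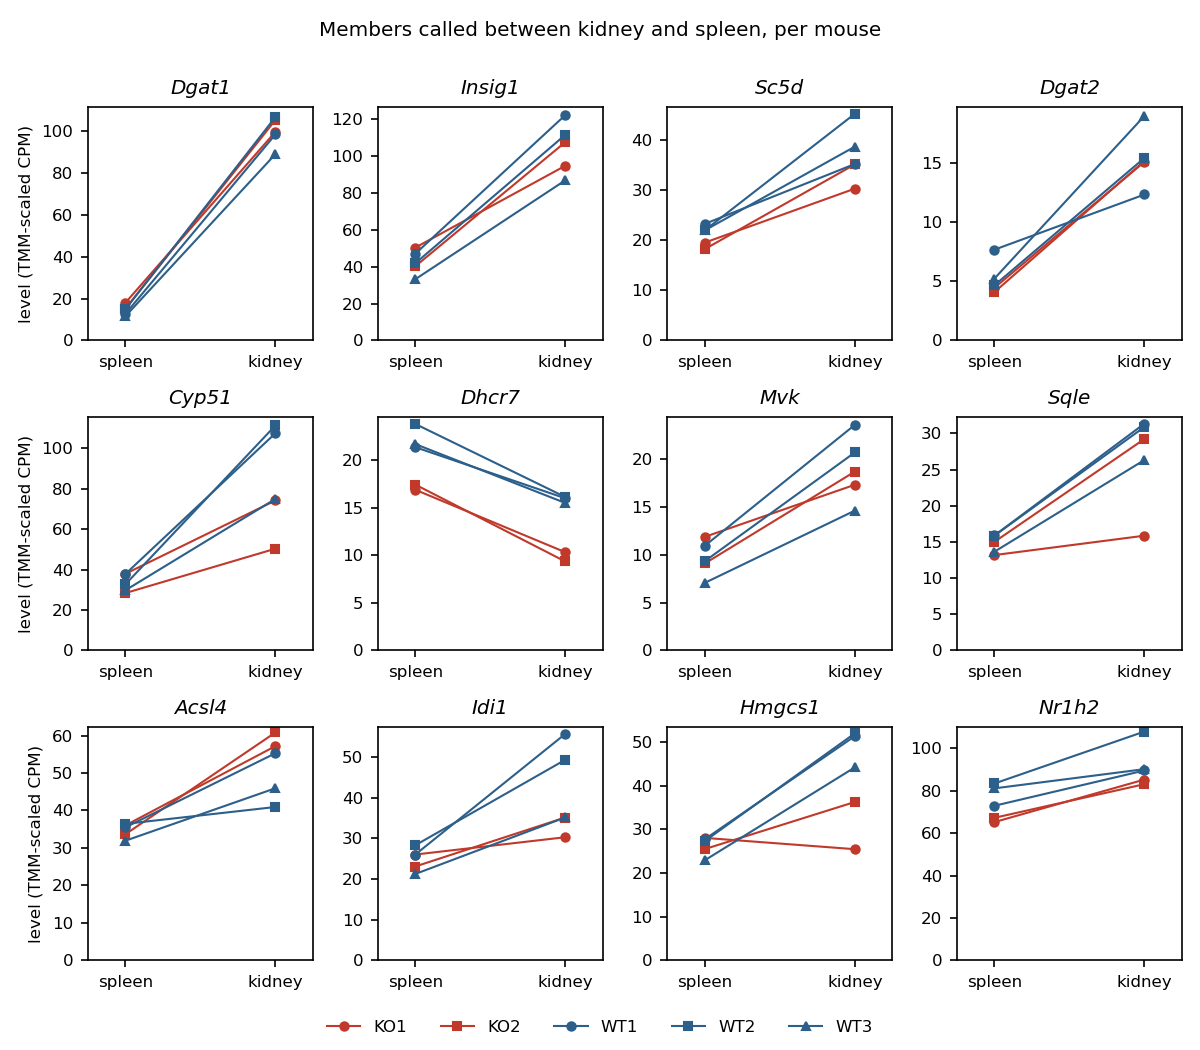
Level (TMM-scaled CPM, axis from 0) of the 12 members called between the organs in spleen and kidney, with a line per mouse (red KO, blue WT). Dgat1, Insig1, Sc5d, Dgat2, Cyp51, Mvk, Acsl4 and Idi1 have every kidney point above every spleen point, and Dhcr7 has every kidney point below every spleen point.

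Counted without a model, 8 members had every kidney sum above every spleen sum, against 8.17% of all genes tested, and 1 had every kidney sum below, against 7.01%. Within each mouse, 14 members were higher in kidney in all 5 (19.5% of all genes tested) and 1 was lower in all 5 (20.1%). With the mouse as a block, 15 members passed in place of 12, the added ones being Acsl3, Fasn and Srebf2. Of the 12 calls, 10 held under each of the 12 alternative settings. The exceptions, Hmgcs1 and Nr1h2, were given above.

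Kidneys were dissociated with enzymes and heat while spleens were mashed, so preparation and organ cannot be told apart. The 10 dissociation and stress genes summed to 5518 to 9333 CPM in kidney and 6436 to 14617 CPM in spleen, with 2 higher and 2 lower in kidney. The 8 kidney tubule markers summed to 1.48, 3.51, 178, 95.4 and 1393 CPM in kidney of KO1, KO2, WT1, WT2 and WT3 and to 1.40 to 99.2 CPM in spleen, where Umod, Aqp1 and Slc12a1 were at 0. Of 3 tubule markers tested, 1 was called higher in kidney. Both CD8 markers were higher in kidney, with sums of 25.7 to 188 CPM against 7.71 to 59.6 CPM in spleen. The NK cell markers summed to 14.9 to 76.7 CPM in kidney and 4.46 to 23.8 CPM in spleen, and the 1 tested was higher in kidney. Of the CD4 T cell markers 2 of 6 were lower in kidney, as was 1 of 5 naive genes. Myeloid markers, 3 of 8 higher in kidney, summed to 25.7 to 167 CPM in kidney and 14.7 to 389 CPM in spleen. Leaving out cells with CD8 or other-type transcripts kept all 12 member calls and added Acsl3 and Fasn. Leaving out naive-class and cycling-class cells, defined below, also kept all 12 and added Srebf2. The part of the remaining marker lists in the organ differences was not tested.

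Within classes of cells, some of the 12 members called between organs stayed apart and others overlapped. In cells with an Nkg7 UMI and one of Gzmb or Gzmk (cytotoxic genes), Dgat1 stood at 86.6 to 109.9 CPM in kidney and 10.5 to 18.1 CPM in spleen. In cells with a UMI of at least 2 of 5 naive genes (Ccr7 and Lef1 among them) it stood at 87.5 to 119 CPM in kidney and 9.15 to 17.8 CPM in spleen. Insig1 stood at 89.7 to 144 CPM in kidney and 31.7 to 44.0 CPM in spleen in the cytotoxic class, and at 99.5 to 154 and 34.9 to 58.1 CPM in the naive class. Neither gene overlapped between organs in either class. Cyp51 did not overlap in the naive class (53.1 to 127 CPM in kidney, 34.0 to 50.9 CPM in spleen) and did in the cytotoxic class, where KO1 in spleen reached 62.0 CPM and KO2 in kidney 33.8 CPM. In all, 4 of the 12 did not overlap in the naive class (Dgat1, Insig1, Cyp51 and Dgat2) and 6 in the cytotoxic class (Dgat1, Insig1, Mvk, Sqle, Hmgcs1 and Nr1h2). Sc5d, Idi1, Acsl4 and Dhcr7, apart over whole blocks, overlapped in both classes. The 12 members were picked for their organ difference in these same cells. The share of all genes that do not overlap within a class was not counted. These counts are therefore no separate evidence of an organ difference within a class.

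A second list holds 76 other genes of these pathways, of which 59 were tested between organs. Of the 59, 8 passed as higher in kidney and 5 as lower, where 12.7% of all genes tested were higher and 10.2% lower. The list as a whole thus lay near the shares over all genes. Its median log2 fold change was 0.09, against -0.04 for all genes. Hsd17b7, a later sterol enzyme (log2 0.78), and Stard4, a cholesterol carrier (0.54), were higher in kidney, as were Lpin2, a phosphatidate phosphatase (0.59), and Pnpla2, a triglyceride lipase (0.43). Lower in kidney were Cpt2, the inner carnitine palmitoyltransferase (-1.45), Plin3, a droplet coat protein (-0.92), and Agpat3, an acyltransferase of phospholipid synthesis (-0.49). By role, 4 of 12 tested sterol genes of this list were higher and 1 was lower, while 0 of 9 fatty acid genes passed.

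The genotype comparison in spleen singled out Scd2, a stearoyl-CoA desaturase that puts the double bond into saturated acyl chains (chr19:44293676-44306864). It stood at 11.1 and 9.56 CPM in KO1 and KO2 and at 29.9, 33.2 and 33.8 CPM in WT1, WT2 and WT3. KO mice were 3.07-fold lower, with a log2 fold change (KO over WT) of -1.62 ± 0.15 (SE, edgeR adjusted p = 0.0344). It was the only one of 31 members called, where 0.239% of the 11698 genes tested passed, 0.0342% as lower. In kidney Scd2 stood at 23.2 and 8.19 CPM in KO1 and KO2 and at 17.9, 17.2 and 15.5 CPM in the WT mice, so the KO mice lay on both sides of the WT range. Scd1 and Scd2 are close paralogs, and how the counting treated reads they share is not given in the sources used here.

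The Scd2 call rests on every mouse but WT1. Its adjusted p was 0.531 without KO1, 0.375 without KO2, 0.138 without WT2, 0.185 without WT3 and 0.00121 without WT1, while the log2 fold change stayed between -1.74 and -1.52. Spleens also differed in makeup: the 5 naive genes summed to 2815 and 2151 CPM in KO1 and KO2 and to 554, 239 and 270 CPM in the WT mice, with 2 of 5 called higher in KO. Nkg7, Gzmb and Gzmk summed to 371 and 533 CPM in the KO mice and to 1287, 3668 and 3366 CPM in the WT mice, with none called by edgeR. Cycling-class cells, defined below, were 2.11% and 1.65% of KO spleen cells and 4.53%, 8.46% and 4.43% of WT spleen cells. CD8 markers summed to 26.7 and 59.6 CPM in KO and 7.71 to 16.2 CPM in WT spleens, and CD4 T cell markers to 3393 and 3647 against 4169 to 4494 CPM, with none called by edgeR. Without cells marked as CD8 or other types the Scd2 difference was -1.67 log2 and still called (edgeR adjusted p = 0.0218). Without naive-class and cycling-class cells it was -0.93 log2 and not called (adjusted p = 0.547). Within naive-class cells Scd2 stood at 8.12 and 9.97 CPM in KO and 38.7, 39.0 and 61.0 CPM in WT spleen, and in the other cells at 16.3 and 9.34 against 24.5, 31.3 and 25.8 CPM. Within cytotoxic-class cells it stood at 12.9 and 14.2 CPM in KO and 38.1, 34.1 and 36.4 CPM in WT, and in the other cells at 11.4 and 9.17 against 26.1, 23.1 and 20.9 CPM. Within cycling-class cells it stood at 28.8 and 34.1 CPM in KO and 70.3, 65.3 and 114 CPM in WT, and in the other cells at 10.6 and 8.82 against 24.7 to 25.3 CPM. KO mice lay below WT mice on each side of all 3 divisions, which recut the same cells of the same spleens and are not independent. Scd2 was picked for its genotype difference in these same cells. Over whole spleens, 20.6% of all genes tested had every KO mouse below every WT mouse, and that share was not counted within a class. These values are therefore no separate evidence of a genotype difference within a class. The genotype difference was not tested within any class, and the part of makeup in it was not tested further.

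No other member passed in spleen. Mvd, mevalonate diphosphate decarboxylase, came next, at 9.47 and 8.80 CPM in KO and 4.95, 6.07 and 5.12 CPM in WT (log2 0.79 ± 0.23, edgeR adjusted p = 0.188). Dhcr7 gave -0.35 ± 0.13 log2 (adjusted p = 0.268), with its KO spleens at 16.9 and 17.4 CPM below all WT spleens. Elovl1, an elongase of very long chains, stood at 28.2 and 25.3 CPM in KO and 36.8, 35.0 and 31.0 CPM in WT (log2 -0.34 ± 0.14, edgeR adjusted p = 0.302). Elovl6, which lengthens palmitate to stearate, stood at 9.66 and 8.95 CPM in KO and 10.2, 18.2 and 17.9 CPM in WT, where WT1 sat next to the KO mice (log2 -0.70 ± 0.30, adjusted p = 0.319). Fdft1, squalene synthase, stood at 23.6 and 29.1 CPM in KO and 36.9, 36.7 and 30.2 CPM in WT (log2 -0.37 ± 0.16, adjusted p = 0.322). Without WT1, Elovl6, Srebf2 and Acsl3 passed beside Scd2, and all genes called went from 28 to 2254.

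By role, the median log2 fold change in spleen was 0.00 for sterol members and -0.18 for fatty acid members, against -0.01 for all genes. In 5 members every KO mouse lay above every WT mouse (18.5% of all genes tested) and in 11 below (20.6%). Of the second list, 0 of 57 genes passed edgeR's test in spleen, 12 of them at an unadjusted p under 0.05.

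In kidney no member passed between genotypes, and neither did any of the 10486 genes tested (0%) with edgeR. At an unadjusted p under 0.05 there were 966 genes and 6 members, and DESeq2 called 58 genes and 0 members. Hmgcs1 had the smallest p, with KO mice at 25.5 and 36.3 CPM below WT mice at 51.3, 52.0 and 44.2 CPM (log2 -0.69 ± 0.20, edgeR adjusted p = 0.457). Dhcr7, at 10.3 and 9.36 against 16.0, 16.1 and 15.5 CPM, gave -0.64 ± 0.22 log2, and Cyp51 gave -0.58 ± 0.24 log2 (adjusted p = 0.467 and 0.536). For Cyp51 the KO1 kidney, at 74.2 CPM, lay just under WT3 at 74.9 CPM.

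The other members with small p in kidney had higher values in KO mice. Plin2 stood at 21.0 and 22.2 CPM in KO and 14.4, 15.1 and 15.2 CPM in WT (log2 0.56 ± 0.18, edgeR adjusted p = 0.467). Abca1 stood at 9.22 and 7.02 CPM in KO and 3.96, 1.19 and 2.34 CPM in WT (log2 1.75 ± 0.58, adjusted p = 0.467). Acsl3, at 30.6 and 32.8 against 21.1, 9.51 and 16.7 CPM, gave 1.03 ± 0.35 log2 (adjusted p = 0.467). Without WT1, Abca1 and Acsl3 passed, and all genes called went from 0 to 739. CD8 markers summed to 188 and 172 CPM in the KO kidneys and 25.7 to 44.7 CPM in the WT kidneys, and naive genes to 1589 and 1983 CPM against 215 to 772 CPM. Tubule markers were at 1.48 and 3.51 CPM in KO and 95.4 to 1393 CPM in WT. Without cells marked as CD8 or other types 0 members passed, and 0 passed without naive-class and cycling-class cells. Over all 11 alternatives the log2 fold change ran from 0.52 to 0.92 for Plin2 and from 0.41 to 1.34 for Acsl3. For Abca1 it ran from 1.38 to 2.36. Beyond these refits, the part of these markers in the kidney values was not tested.

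**Figure D3:**
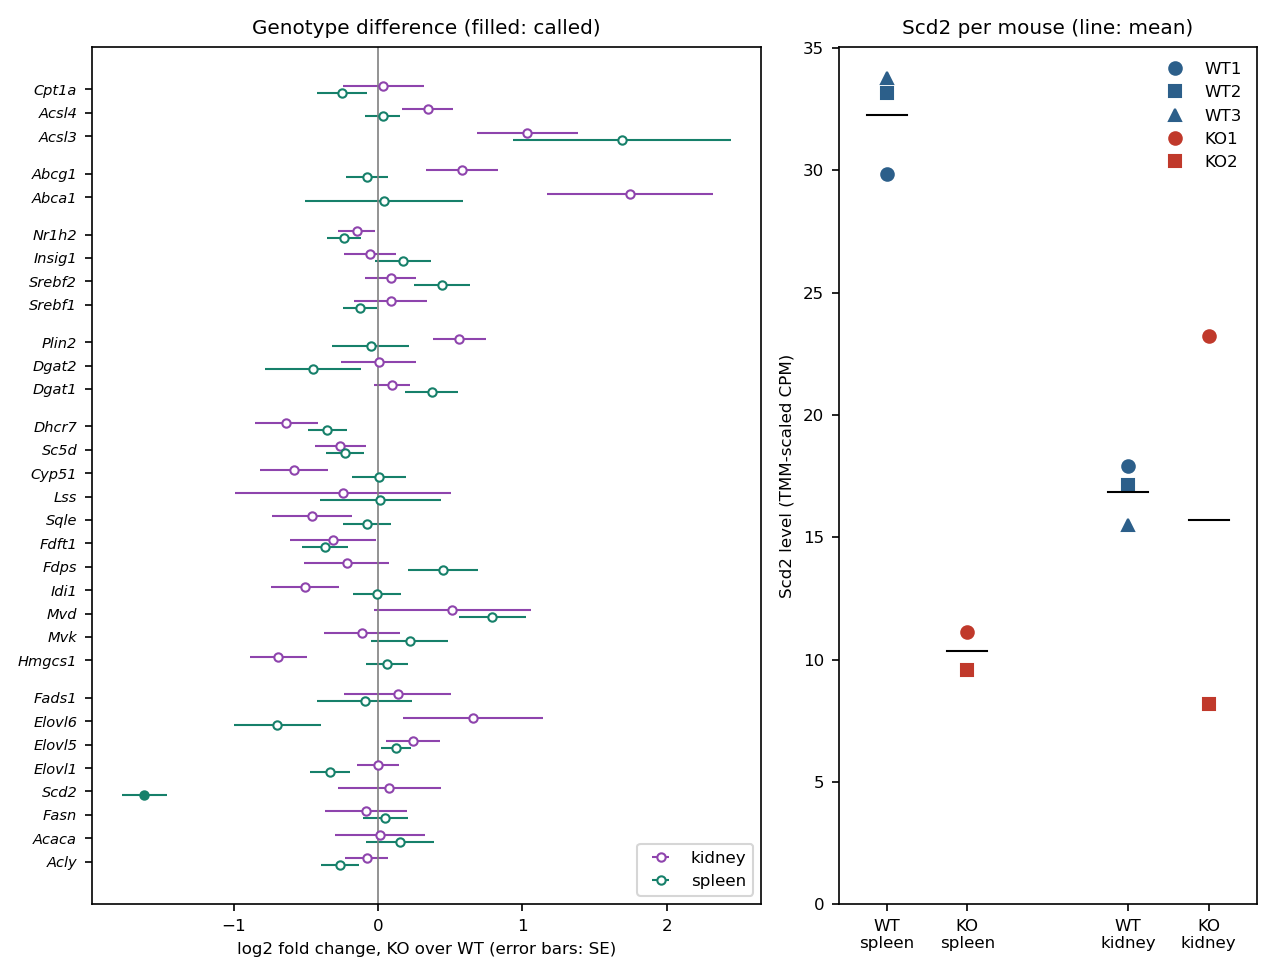
Left: fitted log2 fold change of KO over WT in kidney (purple) and spleen (green) for each tested member, with SE as error bars and filled points for calls. Right: Scd2 level (TMM-scaled CPM) per mouse with group means as lines. Scd2 in spleen is the single filled point, and its KO spleens at 11.1 and 9.56 CPM lie below its WT spleens at 29.9 to 33.8 CPM.

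By role, 10 of 11 sterol members had a negative log2 fold change in kidney, with a median of -0.31, against 0.04 for fatty acid members and -0.01 for all genes. That median was -0.05 without KO1 and -0.60 without KO2. In 6 members both KO mice lay below the lowest WT mouse (17.6% of all genes tested) and in 4 they lay above the highest (12.9%). Of the second list, 0 of 54 genes passed edgeR's test, 5 of them at an unadjusted p under 0.05.

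Whether the genotype difference itself differed between organs was tested by the interaction term, and no member passed, as no gene did among 12072 (0%). With edgeR, 487 genes and 2 members, Scd2 and Hmgcs1, had an unadjusted p under 0.05, and DESeq2 called 6 genes. Scd2 had the smallest p, with 1.69 ± 0.40 log2 (kidney minus spleen, edgeR adjusted p = 1), which was 0.69 without KO1. Hmgcs1 gave -0.77 ± 0.24, Cyp51 -0.61 ± 0.33, Abcg1 0.64 ± 0.30, Abca1 1.69 ± 0.85 and Elovl6 1.33 ± 0.65 log2. Elovl6 stood at 36.2 CPM in kidney of KO1 and 9.36 to 22.8 CPM in the other kidneys, and without KO1 its value was -0.05. The sterol median was -0.34, with 10 of 11 negative, and the fatty acid median 0.20. The sterol median was -0.08 without KO1 and -0.68 without KO2.

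Classes of cells within a block were compared next, by genes that are not members. Cells with at least 3 UMIs over 10 cell cycle genes (Mki67, Top2a and others), summed in 8 blocks with at least 20 such cells, were set against the other cells of the same blocks. Of 32 members tested, 16 were higher and 3 lower, where 38.0% of all genes tested passed, 16.5% higher and 21.5% lower. The median log2 fold change was 0.51 for members and -0.10 for all genes. The kidneys of KO1 and KO2 held too few such cells. Sterol members had 9 of 11 higher, with a median of 0.85, and fatty acid members 5 of 9, with a median of 0.54. Such cells were deeper, with median UMIs per cell of 5620.5 to 12268.5 against 3133 to 3624 in the others, and CPM scales each sum to its own total.

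Scd2 led by p, at 23.9 to 114 CPM (median 39.8) in cycling-class cells and 8.82 to 25.3 CPM (median 15.8) in the others. It was higher in 8 of 8 blocks (log2 1.54 ± 0.16, edgeR adjusted p = 5.77e-07). Fdps, farnesyl diphosphate synthase, rose from a median of 31.5 to 84.6 CPM (log2 1.51 ± 0.17, edgeR adjusted p = 1.97e-06). Idi1 went from a median of 24.6 to 76.5 CPM, higher in 7 of 8 blocks. Sqle (log2 0.97), Cyp51 (0.95), Dhcr7 (0.85), Fdft1 (0.83), Sc5d (0.64), Hmgcs1 (0.77) and Lss (0.99) complete the called sterol members. Hmgcs1 was higher in only 5 of 8 blocks. The calls of Hmgcs1 and Lss were lost with spleen blocks only and without WT2. Dhcr7, lower in kidney than in spleen, was thus higher in cycling-class cells, in 8 of 8 blocks. Mvk and Mvd were not called.

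The other fatty acid members called in the cycling class were Fads2 (log2 2.55 ± 0.54), Fads1 (1.06), both desaturases of polyunsaturated chains, Elovl1 (0.61) and Acaca (0.54). Fads2 was near its limit, with a median of 3.96 CPM against 0.44 CPM. Cpt1a (0.49) and Acsl3 (0.53) were higher too. Lower were Dgat1 (-0.76 ± 0.17, in 8 of 8 blocks), Abcg1 (-0.65 ± 0.15, in 7 of 8) and Nr1h2 (-0.29 ± 0.10, in 7 of 8). The Nr1h2 call was lost under 7 of 8 alternatives, that of Acsl3 under 5, those of Cpt1a and Acaca under 3 each and that of Dgat1 under 1. Of the 19 calls, 12 held under every alternative in which they were tested. Of the second list 15 of 57 were higher and 6 lower, where 16.5% of all genes tested were higher and 21.5% lower. Among the higher were Pmvk (0.88), Acsl5 (0.65), Acadl (0.65) and the lipoprotein receptor Scarb1 (1.64). The electron transfer flavoprotein genes Etfa (0.68) and Etfb (0.75) were also higher. Mylip, which marks the LDL receptor for breakdown, was lower (-1.11).

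Naive-class cells differed from the others of their block in 8 of 31 members, each higher, where 16.3% of all genes tested passed, 7.39% higher and 8.90% lower. Elovl5 stood at a median of 130.5 CPM in the class and 86.3 CPM outside it, higher in 10 of 10 blocks (log2 0.51 ± 0.07, edgeR adjusted p = 0.000165). Acsl3 was higher in 10 of 10 blocks as well (log2 1.10 ± 0.18, adjusted p = 0.000471). The rest were Fdps (0.63), Sqle (0.50), Cyp51 (0.37), Mvk (0.68), Idi1 (0.36) and Srebf2 (0.29), which made 5 of 11 sterol members. Elovl5, Acsl3 and Fdps held under all 8 alternatives. That of at least 50 cells per sum kept the same 10 blocks, so it repeated the main fit and could not differ. Of the second list 5 of 58 were higher and 4 lower, led by Acadl (-0.64), a long-chain acyl-CoA dehydrogenase. Median UMIs were higher in the class in each block, at 3712 to 5206 against 2998.5 to 3331.5.

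Cells with a UMI of Foxp3, which encodes the regulatory T cell factor, could be summed in 6 blocks. They were 0.341% to 22.2% of the cells of a block over all 10. A single UMI can come from free RNA, so they are not called regulatory T cells here. Of 28 cells in these 6 blocks with B cell or myeloid markers and no Cd3 UMI, 1 held a Foxp3 UMI (3.57%, median 5050 UMIs), against 12.1% of the rest, and 28 cells are too few to set the background. Cells with a Foxp3 UMI were deeper in both kidneys summed, with median UMIs of 4469 against 3375.5 in KO1 and 7260 against 3457 in WT1, and at 3302 to 3687 against 3197 to 3664 in the spleens. Of 31 members 4 were higher and 0 lower, where 11.7% of all genes tested passed (6.02% higher, 5.67% lower): Sc5d (log2 0.67 ± 0.14), Dgat1 (0.58 ± 0.14), Fasn (0.55 ± 0.15) and Elovl5 (0.34 ± 0.10). Each was higher in 6 of 6 blocks. Dgat1 stood at 144 and 170.3 CPM in such cells of 2 kidneys, KO1 and WT1, and at 12.2 to 29.4 CPM in those of spleens. None of the 4 calls held under all 7 alternatives. Those of at least 50 cells per sum and without WT2 kept the same 6 blocks, so they repeated the main fit.

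Cytotoxic-class cells differed in 6 of 31 members, 3 higher and 3 lower, where 23.9% of all genes tested passed, 10.7% higher and 13.1% lower. Scd2 was higher in 9 of 10 blocks (log2 0.63 ± 0.17, edgeR adjusted p = 0.0112) and was the only one of the 6 to hold under all 7 alternatives. The alternative of at least 50 cells per sum kept the same 10 blocks, so it repeated the main fit and could not differ. Fdft1 (0.47) and Srebf1 (0.34) were higher in 8 of 10 blocks. Elovl5 (-0.29) was lower in 10 of 10 blocks, and Acsl3 (-0.79) and Fasn (-0.50) in 9 of 10. Elovl5 and Acsl3 were called in opposite directions in the naive and cytotoxic classes. Each class was set against other cells of its block that can include the other class, so these directions are not independent. Of the second list 5 of 57 were higher and 9 lower, with Acadl (1.06) and Agpat3 (0.77), both higher, first by p.

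**Figure D4:**
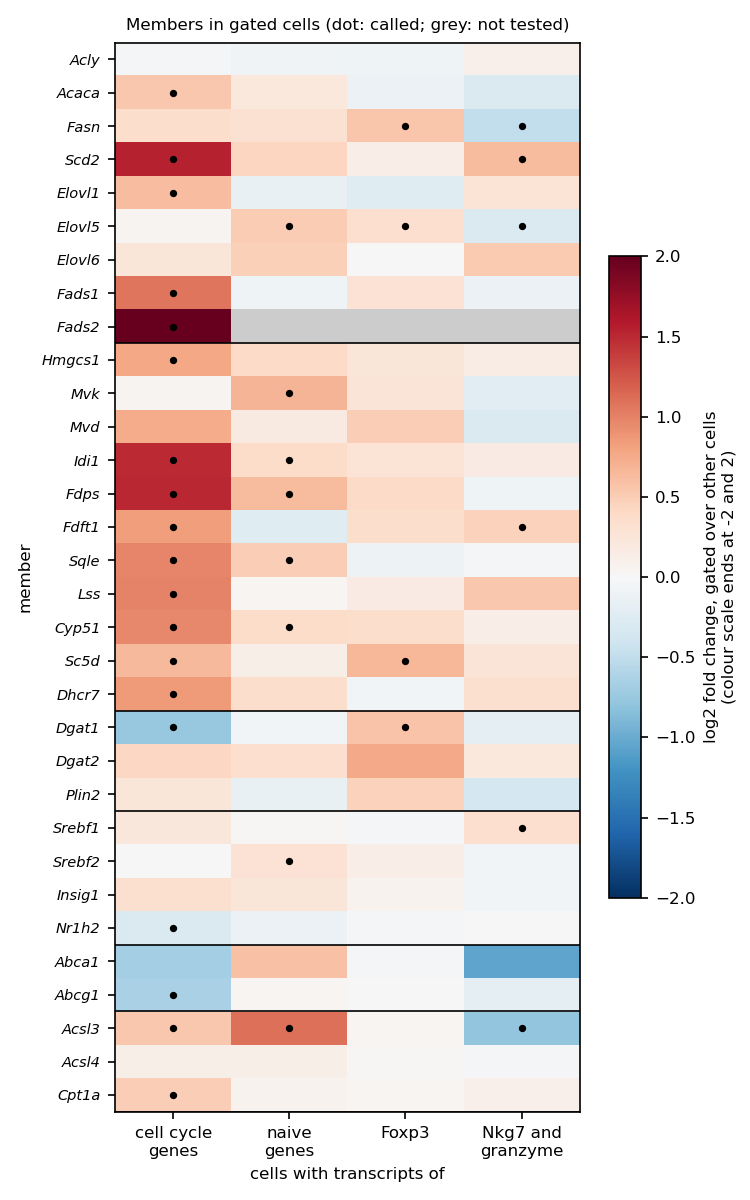
Fitted log2 fold change of gated over other cells of the same block for each member (rows, grouped by role) in 4 classes of cells defined by transcripts of the genes named under each column. Red is higher and blue lower in the class, with colours ending at -2 and 2. Dots mark calls and grey marks members not tested. The column of cell cycle genes holds 16 higher and 3 lower calls.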

How the data were processed

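Per the labels' protocols, sorted CD4+ T cells were tagged by mouse and organ, pooled and read by 5′ single-cell sequencing. The deposited matrices, 1 per organ, hold UMI counts with no normalization by the authors. Cell Ranger 7.1.0 made them, per the file headers, and the submitters' processing notes also list Seurat 5.0.1 and the build mm10 (GRCm38). Other settings were not stated. Tag numbers were joined to mice by the order of the deposited key, and 13 cells led by another tag than their block's were left out. No doublet caller was run, so a droplet with 2 cells of 1 mouse counts as 1 cell.

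Counts were summed per block, and per block and cell class (at least 20 cells in each sum), and fitted in R 4.3.3 with edgeR 4.0.16 (TMM, filterByExpr, quasi-likelihood, Benjamini-Hochberg at 0.05 over all genes tested). The organ fit had genotype as covariate, the genotype fits used 1 organ each, and the class fits had the block as covariate. Fits were also run on simulated counts with known changes, 1 fixed spread and no effect of mouse or cell makeup. The outcome is not reported here and would not cover those features of the data. SE is the log2 fold change over the root of F. Alternatives were DESeq2 1.42.0, RLE scaling, no filter, other cell filters and class limits, single mice left out and the mouse as a block. Mice pair the organs because both came from 1 animal: the deviations of a mouse's kidney and spleen correlated at 0.654, 0.618 and 0.285 in WT1, WT2 and WT3, and at 0.00668 in the KO mice, which mirror each other.

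The members and lists were chosen with earlier results of these data known. Members were named with values per mouse if called, or among the 6 smallest p, between organs or genotypes. In cell classes called members were named, and of the second list up to 8 called genes by p. Some genes of the second list and of the class definitions are counted but not reported by name here.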

Additional observations from a re-analysis of the deposited data

How the results depend on the processing

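Of the 12 members called between organs, Dgat1, Insig1, Sc5d, Dgat2, Cyp51, Dhcr7, Mvk, Sqle, Acsl4 and Idi1 kept their direction and call under each of 12 alternatives. With the mouse as a replicate block, 15 members and 3715 genes passed between organs, and 4 genes but 0 members in the interaction. Genes called between genotypes in kidney numbered 26 without the filter on low counts and 58 with DESeq2. In spleen they numbered 340 without the filter, 338 without cells marked as CD8 or other types, 697 with DESeq2 and 0 without naive-class and cycling-class cells, where 0 members passed. The interaction had 6 genes with DESeq2. Without marked cells the fatty acid median in spleen was -0.28 and the sterol median of the interaction -0.59. With spleen blocks only, the naive class had 1031 genes, the cytotoxic class 868 genes and 2 members, and the Foxp3 class 1 member and a fatty acid median of -0.10. The interaction value of Elovl6 ran from -0.051 without KO1, the only reversal, to 1.81 without KO2. The cause was not tested for any of these.

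Leaving out 1 mouse at a time gave, between genotypes in kidney, 0 to 739 genes, 0 to 2 members, sterol medians of -0.60 to -0.053 and fatty acid medians of -0.031 to 0.16. In spleen it gave 0 to 2254 genes, 0 to 4 members and fatty acid medians of -0.37 to -0.084. Between organs it gave 1484 to 2712 genes (1484 without KO1, 1506 without KO2 and 1649 without WT3). The interaction had 0 to 1 genes, sterol medians of -0.68 to -0.081 and fatty acid medians of 0.047 to 0.24. The naive class had 1185 (without KO2) to 1443 genes, the Foxp3 class 671 to 1326 genes and 0 to 4 members (0 without KO1 or WT1, 2 without WT3), and the cytotoxic class 2 to 5 members (2 without WT3, 3 without WT2). Where 1 KO mouse was left, it was assumed to vary like the others. Of 632 values of single members under alternatives, 549 kept direction and side of the threshold, 79 lost the call, 3 gained it and 1 reversed. The 549 include values in the naive, Foxp3 and cytotoxic classes from alternatives that repeated the main fit and could not differ. With 219 kidney cells, KO2 limits the precision of each kidney comparison.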
